A study of Mus musculus with 8 samples.

Results

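5-hydroxymethylcytosine (5hmC) over genes was compared between primary mouse embryonic fibroblasts (MEFs) and adult brain, which are 2 of the 8 samples of the series, with 1 library each. Both samples came from C57BL/6 mice. The MEFs carry the label embryonic day 11, although the study's methods give a later day of gestation, and they were grown in culture, whereas the brain was whole tissue of 8-week-old mice and therefore a mixture of cell types. The labels name no transgene, knockdown or treatment for either sample. For each of the 22367 protein-coding genes of the nuclear chromosomes (mm9 assembly, GENCODE M1 annotation), the share of the gene span that lay in 5hmC peaks was computed, as was the share of the 2000 bp around the transcription start site (TSS ± 1 kb). All nuclear peaks of both lists were used. As each side has 1 library, no difference between MEFs and brain was tested, and sizes are given instead.

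5hmC is made when the TET dioxygenases oxidise 5-methylcytosine, and it is found mostly at CpG dinucleotides. It can be an intermediate of demethylation or a lasting mark, and it tends to lie in the bodies of genes that are in use, away from CpG-rich start sites. Neurons are known for a high content of 5hmC, while dividing cells in culture usually hold less. In GLIB-Seq the mark is glucosylated, oxidised with periodate and coupled to biotin, and the DNA fragments that carry it are pulled down and sequenced. A peak is thus an interval in which such fragments were piled up, and it does not give the number of modified cytosines. In pooled cells, a mark present in more cells and a denser mark in each cell cannot be told apart.

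The MEF list held 217025 nuclear peaks with a median width of 817 bp, which covered 7.83% of the nuclear genome. The brain list held 157511 nuclear peaks with a median width of 1063 bp, which covered 7.34%. Each peak has a score from the peak caller, in lists of this kind 10 times the negative log10 of a p-value. The lowest score was 30 in both lists, but the median was 58.2 in MEFs and 49.8 in brain, and 34.1% of the MEF peaks against 21.1% of the brain peaks reached 80. Chromosome X was almost free of peaks, with 757 in MEFs and 22 in brain, and a peak touched 152 of its 932 protein-coding genes in MEFs and 9 in brain. The read depth of the libraries is not given, and its part in the differences below was not tested.

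About as many genes carried 5hmC in the one sample as in the other, but brain peaks filled more of the gene. A peak touched the span of 13651 genes in MEFs (61.0%, exact 95% interval 60.4 to 61.7%) and of 13567 genes in brain (60.7%, 60.01 to 61.3%), and 11747 genes were touched in both. In MEFs the mean coverage of a span was 10.7% and the median 4.43%. In brain the mean was 14.1% and the median 6.43%. At least 50% of the span was covered for 687 genes in MEFs and 1300 in brain. Across all genes the coverage in MEFs and brain had a Spearman correlation of 0.655, which describes genes of 2 libraries and not replicates.

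A difference of at least 10 percentage points of the span was taken as large, and a gene past it is called higher in MEFs or higher in brain below. By this measure 2028 genes (9.07% of all genes) were higher in MEFs and 4822 (21.6%) were higher in brain. The counts for gene lists below are to be read beside these shares. Of the genes past 10 points, 70.4% were thus higher in brain, a share that became 80.3% with equal numbers of peaks in the 2 lists and 55.0% with peaks of a score of at least 80. Past 50 points there were 145 genes in MEFs and 323 in brain. The plot of all gene spans shows both wings, with the genes of the lower edge covered in MEFs alone and those of the left edge in brain alone.

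**Figure D1:**
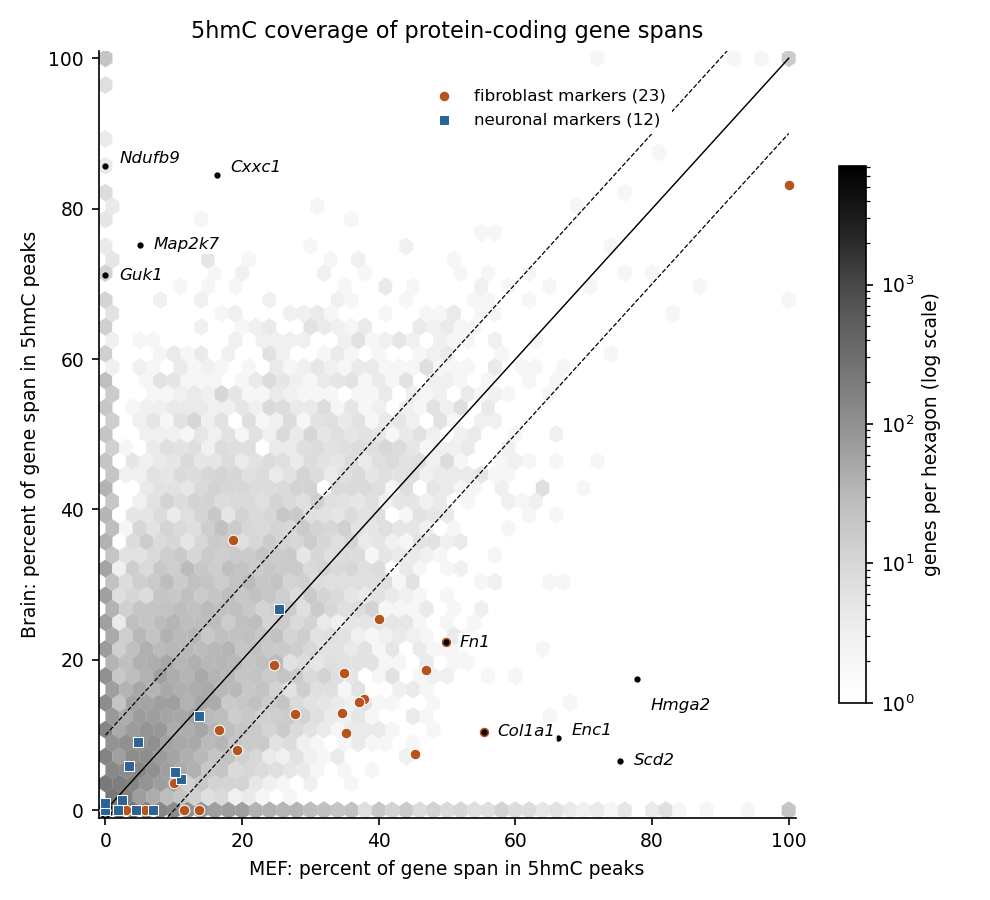
Percent of each protein-coding gene span in 5hmC peaks, MEFs on the horizontal and brain on the vertical axis. Grey hexagons count genes on a log scale, circles are the 23 fibroblast markers, squares the 12 neuronal markers, the solid line marks equal coverage and the dashed lines a difference of 10 points. The circles lie mostly below the lower dashed line, and all squares lie between the dashed lines.

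Among spans of at least 5 kb, the 12 genes with the largest differences toward MEFs had 51.3 to 77.8% of the span in MEF peaks and 0 to 24.8% in brain peaks. Scd2, a stearoyl-CoA desaturase that makes monounsaturated fatty acids, had 75.3% of its 13.2 kb covered in MEFs by 2 peaks, the higher with a score of 1484. In brain 1 peak with a score of 49.96 covered 6.56%. Hmga2, which encodes a chromatin protein of embryonic and mesenchymal cells, was covered over 77.8% of its 115 kb by 43 MEF peaks and over 17.5% by 18 brain peaks. The highest score in Hmga2 was 1417 in MEFs and 93.9 in brain. Both genes had MEF peaks through most of the body and none within 1 kb of the TSS.

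Basp1, a membrane protein of growth cones, had 65.8% covered in MEFs and 12.8% in brain. Enc1, an actin-binding protein first described in ectoderm and neurons, had 66.2 and 9.66%. Dbn1, the actin-binding protein drebrin of dendritic spines, had 58.8 and 6.04%. Lrrtm2, a synaptic adhesion gene that lies within the span of another gene, had 59.7% in MEFs and no peak in brain. Plk2, a polo-like kinase, and Ptrf, a coat protein of caveolae, were also bare in brain, with 57.6 and 51.3% of the span covered in MEFs. Smad7, an inhibitor of TGF-beta signalling, had 75.1% in MEFs and 24.8% in brain. Calm3, a calmodulin gene, had 73.3 and 24.8%, Ptov1 had 74.7 and 24.0%, and Bloc1s1, which overlaps another gene, had 63.3 and 11.4%.

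The 12 genes with the largest differences toward brain were short, from 5.23 to 12.7 kb, and 7 of them had no MEF peak in the span. They had 65.2 to 85.7% of the span covered in brain and 0 to 16.3% in MEFs. Ndufb9, a subunit of complex I of the respiratory chain, had 85.7% of its 5.68 kb in 3 brain peaks and none in MEF peaks. Guk1, the guanylate kinase that turns GMP into GDP, had 71.2% of 8.36 kb in 3 brain peaks and none in MEF peaks. Mul1, a ubiquitin ligase of the outer mitochondrial membrane, had 70.8% in brain and was bare in MEFs. Cxxc1, which binds unmethylated CpGs and belongs to the SETD1 histone methyltransferase complexes, had 84.4% in brain in a single peak and 16.3% in MEFs.

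Acadvl, the very long chain acyl-CoA dehydrogenase of fatty acid oxidation, had 67.8% in brain and 0 in MEFs. Pold2, a subunit of DNA polymerase delta, had 74.9% in brain and 8.67% in MEFs. Mocs2, which acts in the synthesis of the molybdenum cofactor, had 65.2% and 0. Gyltl1b, a glycosyltransferase of dystroglycan, had 78.1 and 10.8%, and Lamtor3, a scaffold of the lysosomal Ragulator complex, had 72.7 and 7.21%. Map2k7, a kinase that activates JNK, had 75.2 and 5.05%, Zbtb39 had 69.5% and 0, and Wdr54 had 66.8% and 0. The spans of Acadvl, Map2k7, Zbtb39 and Wdr54 overlap that of another protein-coding gene, so that the same peaks count for both.

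Stretches of sequence under 4 of these peaks are shown so that the CpGs in them can be seen. For 2 genes of each side, the 300 bp around the midpoint of the highest-scoring peak that met no peak of the other library and no exon in this window are printed from the plus strand of mm9, with CpGs in capitals. Hmga2 (MEF peak of 3533 bp, score 719, intronic, chr10:119817968-119818267) and Basp1 (MEF peak of 2422 bp, score 290.5, intronic, chr15:25325832-25326131) stand for MEFs. Ndufb9 (brain peak of 2025 bp, score 131, intronic, chr15:58768138-58768437) and Guk1 (brain peak of 2683 bp, score 148, intronic, chr11:59001261-59001560) stand for brain.
Hmga2: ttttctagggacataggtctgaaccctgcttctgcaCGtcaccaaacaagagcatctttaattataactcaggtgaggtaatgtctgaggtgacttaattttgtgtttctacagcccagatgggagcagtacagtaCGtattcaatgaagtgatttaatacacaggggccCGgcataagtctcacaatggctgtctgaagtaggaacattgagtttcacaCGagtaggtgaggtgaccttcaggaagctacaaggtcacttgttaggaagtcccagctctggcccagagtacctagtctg
Basp1: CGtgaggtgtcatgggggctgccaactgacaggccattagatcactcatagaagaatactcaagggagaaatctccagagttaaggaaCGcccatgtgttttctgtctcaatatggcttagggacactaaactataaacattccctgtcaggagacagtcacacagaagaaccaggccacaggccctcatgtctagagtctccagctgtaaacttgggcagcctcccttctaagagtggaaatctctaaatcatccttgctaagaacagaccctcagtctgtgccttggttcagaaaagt
Ndufb9: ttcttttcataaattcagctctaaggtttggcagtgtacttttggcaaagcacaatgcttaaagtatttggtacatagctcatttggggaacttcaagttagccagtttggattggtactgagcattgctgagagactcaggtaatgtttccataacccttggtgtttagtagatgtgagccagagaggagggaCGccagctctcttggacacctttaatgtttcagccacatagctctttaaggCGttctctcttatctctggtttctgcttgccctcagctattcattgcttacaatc
Guk1: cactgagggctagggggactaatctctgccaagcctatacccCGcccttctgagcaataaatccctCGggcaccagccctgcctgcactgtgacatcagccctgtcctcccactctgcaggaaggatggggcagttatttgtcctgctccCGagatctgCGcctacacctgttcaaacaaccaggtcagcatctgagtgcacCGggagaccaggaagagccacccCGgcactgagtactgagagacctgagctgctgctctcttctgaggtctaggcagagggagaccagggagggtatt
The windows hold 4 CpGs in Hmga2, 2 in Basp1, 2 in Ndufb9 and 6 in Guk1, and their GC content is 45.7, 47.3, 42.7 and 58.3%.

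**Figure D2:**
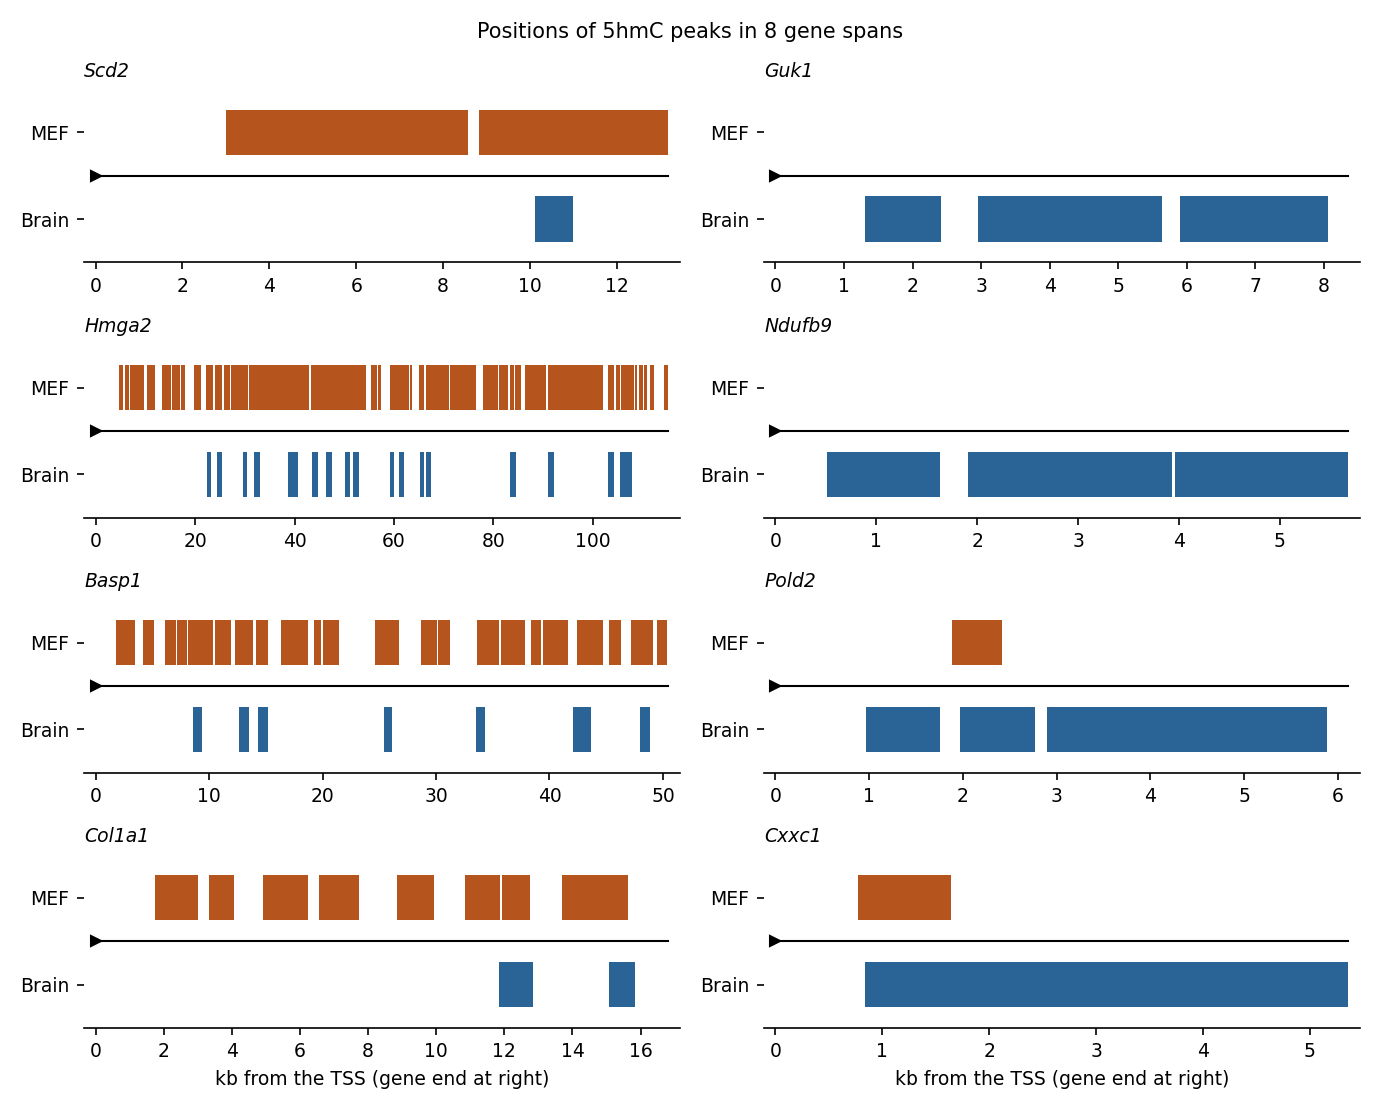
Positions of 5hmC peaks in 8 gene spans, in kb from the TSS with the gene end at the right; filled boxes above the gene line are MEF peaks and those below it brain peaks. The left column shows genes with more coverage in MEFs (Scd2, Hmga2, Basp1, Col1a1) and the right column genes with more coverage in brain (Guk1, Ndufb9, Pold2, Cxxc1), and in all 8 the peaks leave the first stretch after the TSS free.

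Counted in bp rather than in percent, the largest differences fell on very long genes. Toward MEFs they were Rbms3, an RNA-binding protein gene of 1057 kb with 23.8% in MEFs and 7.19% in brain, and Wwox, a fragile-site gene of 913 kb with 39.96 and 27.7%. Next came Tshz2, a zinc finger transcription factor (45.7 and 21.3%), and Bnc2, a zinc finger protein of mesenchymal cells (27.5 and 6.06%). Odz3, a teneurin, had 44.5 and 25.4%, and Dnahc8, an axonemal dynein chain, had 41.1 and 8.39%. Dnahc8 carried 78 MEF peaks with a highest score of 1434 and 18 brain peaks with a highest score of 92.4.

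Toward brain the largest differences in bp were those of Ptprg, a receptor tyrosine phosphatase of 689 kb (14.4% in MEFs and 33.3% in brain), and Agap1, an Arf GTPase activator (36.7 and 61.9%). Ephb1, an Eph receptor of axon guidance, had 8.48 and 33.1%, and Csmd2, a large membrane protein of the brain, had 7.80 and 25.5%. Fto, an RNA demethylase, had 33.3 and 61.3%, and Dock1, an activator of Rac, had 15.6 and 35.3%. In Agap1 the numbers of peaks were alike, 145 in MEFs and 141 in brain, so that the larger coverage in brain came with wider peaks.

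Fibroblast markers had far more of the gene span in 5hmC peaks in MEFs. Of 23 markers, 15 were higher in MEFs and 1 in brain, and 20 had the larger coverage in MEFs by any amount. With equal numbers of peaks 12 were higher in MEFs and 1 in brain. The median coverage was 27.7% in MEFs and 10.7% in brain, beside 4.43 and 6.43% for all genes. The genes of the 2 chains of type I collagen led the list, Col1a1 with 55.3 and 10.5% and Col1a2 with 45.3 and 7.55%. Fn1, which encodes fibronectin, had 49.9 and 22.3%. Vim, the intermediate filament vimentin of mesenchymal cells, had 35.1 and 10.2%, and Prrx1, a transcription factor of limb mesenchyme, had 37.8 and 14.7%. The receptor genes Pdgfra (40.01 and 25.5%) and Pdgfrb (34.9 and 18.3%) were also higher in MEFs. S100a4 was covered over the whole span in MEFs and over 83.2% in brain.

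Not every fibroblast marker carried the mark. Lum, a proteoglycan of the collagen matrix, and Twist1 were bare in both samples. Col3a1, the chain of type III collagen, had 2.96% in MEFs and none in brain, and Postn, or periostin, had 5.76% and none. Fbln2, a matrix protein, went the other way, with 18.7% in MEFs and 35.9% in brain. Thy1, which marks fibroblasts as well as neurons, had 11.5% in MEFs and no brain peak.

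Genes of the matrix and of the contractile cytoskeleton were also more often higher in MEFs, and by how much depended on the choice of peaks. The shares were 32.6% of collagens, 42.9% of matrix genes and 36.4% of actomyosin genes. This was not particular to them, as skeletal muscle (41.2%), lymphocyte (33.3%) and keratin genes (30.4%) had like shares, though hepatocyte genes (8.33%) did not. The excess was smaller with equal numbers of peaks, where MEF peaks covered 169.9 Mb and brain peaks 194.8 Mb. Of 43 collagen genes 14 were higher in MEFs and 2 in brain (Col27a1, with 27.5 and 38.6%, and Col11a2, with 8.88 and 19.8%), and with equal numbers of peaks 9 and 4. Of 42 matrix glycoproteins and crosslinking enzymes 18 were higher in MEFs and 6 in brain, with medians of 24.9 and 18.3%, but with equal numbers of peaks these counts were 12 and 9. Thbs1, or thrombospondin 1, had 80.7 and 38.1%, and Loxl1, a lysyl oxidase that crosslinks elastin, had 52.0 and 24.2%. Efemp2, a fibulin, had 38.1 and 71.8%, and Loxl4, another lysyl oxidase, had 12.4 and 44.0%.

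Among 33 actomyosin and focal adhesion genes 12 were higher in MEFs and 4 in brain, or 9 and 6 with equal numbers of peaks. With a score of at least 80 the counts were 17 and 1. Acta2, the smooth muscle actin of myofibroblasts, had 49.0 and 13.8%. Myh9, the heavy chain of nonmuscle myosin, had peaks over most of the span in both, with 54.5% in MEFs and 67.0% in brain. Flnc, a filamin of muscle, had 12.6 and 34.7%. Of 37 laminins and integrins 6 were higher in MEFs (among them Itgb6) and 7 in brain (Lamb3 and Lama5 first).

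Of 46 mesenchymal and limb transcription factors 12 were higher in MEFs and 1 in brain, or 7 and 3 with the better-scoring 50% of both lists. Prrx2, a homeobox factor of mesenchyme, had 53.8% in MEFs and 21.2% in brain, and Twist2, a bHLH factor of the dermis, had 46.9 and 18.7%. Many factors of this list were bare, 20 in MEFs and 26 in brain. The Hox cluster genes were nearly empty, as 34 of 39 had no peak in either sample, and the other 5 had peaks in MEFs only, over at most 7.86% of the span.

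In the TGF-beta and BMP pathway the ligands were higher in MEFs more often than all genes were. Of 28 ligands 12 (42.9%) were higher in MEFs and 5 (17.9%) in brain, beside 9.07 and 21.6% of all genes. Of 8 Smads 1 was higher in MEFs (Smad7) and 3 in brain, which are too few to set them apart from all genes. These parts of the pathway were not recomputed with other choices of peaks. Gdf5, a ligand of joint formation, had 66.6 and 20.6%. Gdf7, a ligand of the dorsal spinal cord, had no MEF peak and 56.9% in brain, and Gdf15, a stress-induced ligand, had none and 41.8%. Over all 52 genes of the pathway 15 were higher in MEFs and 9 in brain, but with equal numbers of peaks the counts were 10 and 11, so that this balance depended on the choice of peaks.

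Wnt and FGF genes had members on both sides, and their ligands were higher in MEFs more often than all genes were. Of 19 Wnt ligands 5 (26.3%) were higher in MEFs and 4 (21.1%) in brain, beside 9.07 and 21.6% of all genes. Wnt5a, a ligand of mesenchyme and limb outgrowth, had 30.9% in MEFs and 6.82% in brain. Among 10 Frizzled receptors Fzd9 was bare in brain and had 61.6% in MEFs, whereas Fzd7 had 12.2 and 56.3% and Fzd5 had 11.2 and 51.7%. Of 22 FGF ligands 5 (22.7%) were higher in MEFs and 2 (9.09%) in brain. Fgf21, a metabolic hormone, had 66.7% in MEFs and no brain peak, and Fgf22, a ligand that organises synapses, had no MEF peak and 73.4% in brain.

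**Figure D3:**
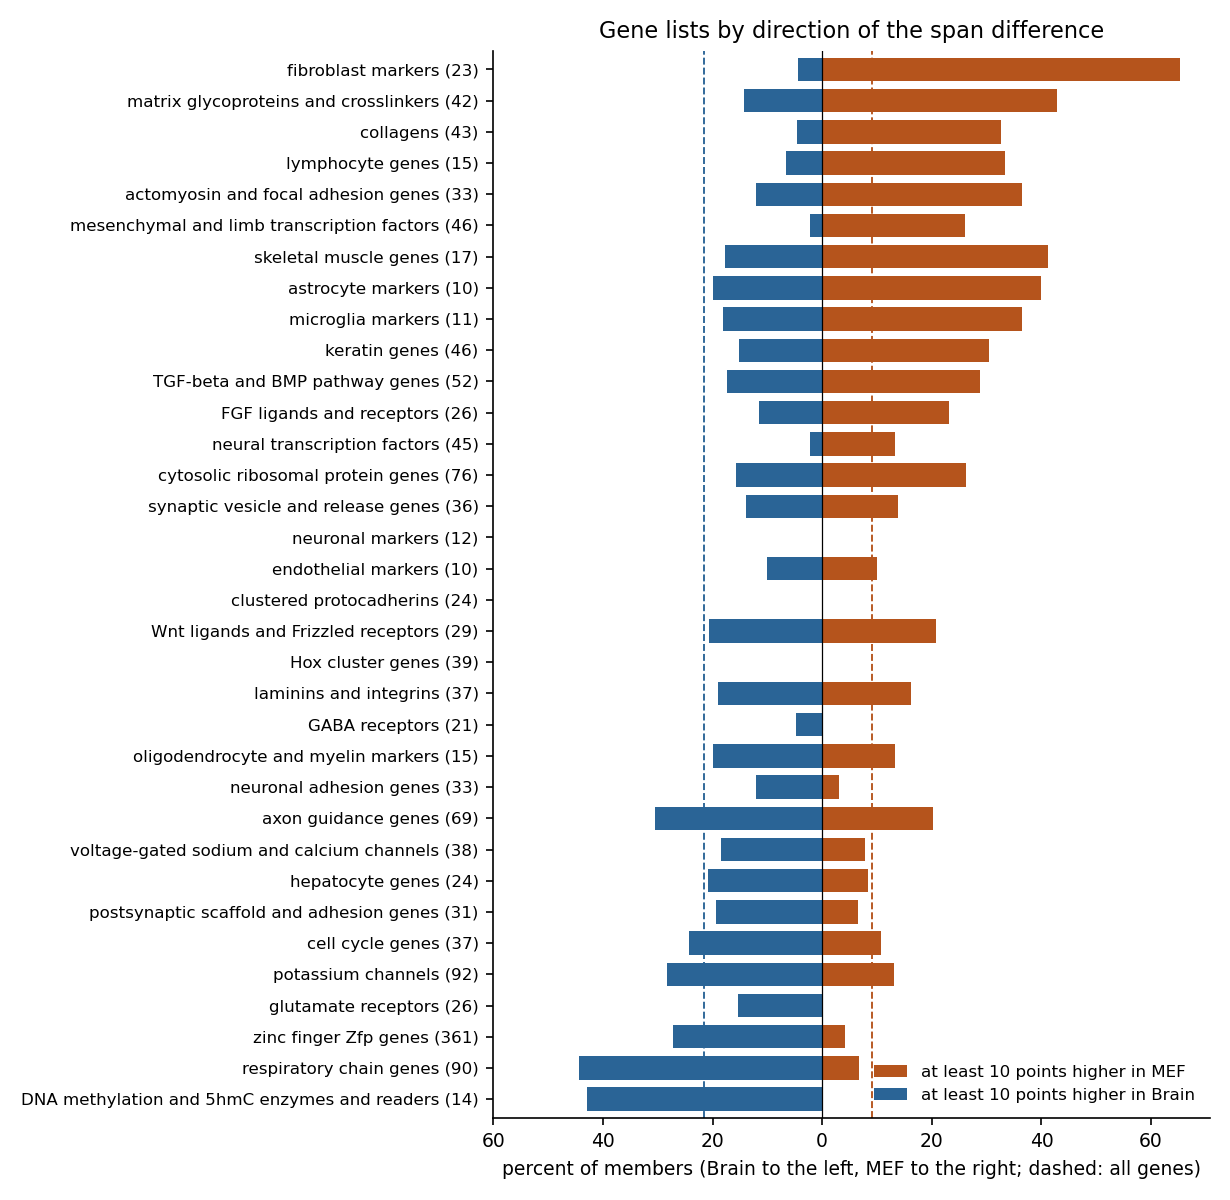
Percent of the members of each gene list that were at least 10 points higher in brain (bars to the left) or in MEFs (bars to the right), with the number of members in parentheses; dashed lines mark the same percentages for all genes, 21.6 and 9.07%. Fibroblast markers reach farthest to the right, and respiratory chain genes and DNA methylation enzymes and readers farthest to the left.

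The neuronal markers did not mirror the fibroblast markers. None of 12 was past 10 points in either direction, although with the better-scoring 50% of both lists 1 was higher in MEFs. Their median coverage was 4.63% in MEFs and 2.79% in brain, but 4.63 and 4.61% without the 2 markers on chromosome X. Of the 10 other markers 5 had more coverage in MEFs and 4 in brain. Snap25, a SNARE protein of synaptic vesicle release, had no MEF peak and 0.999% of its 69.0 kb in brain. Nefl, the light neurofilament, was bare in both. Syt1, the calcium sensor of release, had 11.1% in MEFs and 4.16% in brain, and Stmn2 had 10.1 and 5.05%. Rbfox3, which encodes the nuclear antigen NeuN, had 13.7 and 12.5%. Mtap2 (Map2), the dendritic microtubule protein, had 3.51 and 5.93%, Elavl4 had 4.76 and 9.11%, and Eno2, the neuronal enolase, had 25.4 and 26.8%. Syp and Dcx lie on chromosome X, with 6.95 and 1.88% in MEFs and no brain peak. By 5hmC over the span, the neuronal markers thus did not set the sample labelled brain apart from MEFs.

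Markers of the other cells of the brain were uneven. Among 15 oligodendrocyte and myelin genes, Cnp, a myelin phosphodiesterase, had 13.8% in MEFs and 53.8% in brain, Opalin had none and 29.7%, and Mobp had 4.74 and 20.1%. Cldn11, a tight junction protein of myelin and of the testis, went the other way with 52.3 and 6.46%, as did Ermn with 16.3% and none. Mbp, which encodes myelin basic protein, had 45.3 and 35.9%. Of 10 astrocyte markers 4 were higher in MEFs and 2 in brain. Gja1, or connexin 43, which fibroblasts use as well, had 36.5% in MEFs and no brain peak, while Fgfr3 had 25.7 and 53.8% and Glul, the glutamine synthetase, 35.1 and 48.8%. Gfap, the astrocyte intermediate filament, had 22.5 and 23.7%.

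Of 11 microglia markers 4 were higher in MEFs, Aif1 and Tmem119 first, and 2 in brain, namely C1qc, with no MEF peak and 51.7% in brain, and Cd68, with 76.5 and 92.0%. Of 10 endothelial markers Flt1 was higher in MEFs (23.2 and 12.03%) and Esam in brain (5.68 and 20.4%).

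Genes of neuronal function were near the share of all genes in brain, or below it, in most lists. Many are long, and of all genes 17.9% at 50 to 200 kb and 8.70% over 200 kb were higher in brain. Beside these, glutamate receptors (median 298 kb, 15.4%) and neuronal adhesion genes (580 kb, 12.1%) were above. Postsynaptic genes (106 kb, 19.4%) and sodium and calcium channels (93.1 kb, 18.4%) were near. Synaptic vesicle genes (60.1 kb, 13.9%) and GABA receptors (88.6 kb, 4.76%) were below. Of 36 synaptic vesicle and release genes 5 were higher in each sample. Vamp2, the vesicle SNARE, had 40.4% in MEFs and none in brain, and Dnm1, the dynamin of vesicle recycling, had 44.4 and 9.52%. Syt2 had 16.6 and 37.8%, and Synj1, a phosphatase that uncoats vesicles, had 4.30 and 24.0%. Of 31 postsynaptic scaffold and adhesion genes 2 were higher in MEFs and 6 in brain. Camk2a, the kinase of long-term potentiation, had 35.4 and 14.9%, Nrxn2, a presynaptic partner of neuroligins, had 13.2 and 37.7%, and Shank3, a master scaffold of the spine, had 11.8 and 34.3%.

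The receptors of the main transmitters were mostly thinly covered. Of 26 glutamate receptor genes none was higher in MEFs and 4 were higher in brain, among them Grin3b (41.7 and 74.2%) and Grik4 (21.5 and 34.0%). Of 21 GABA receptor genes none was higher in MEFs and only Gabrd, with no MEF peak and 13.3% in brain, was higher in brain. Among 38 voltage-gated sodium and calcium channel genes 3 were higher in MEFs and 7 in brain. Cacna1h, a T-type calcium channel, had 17.4 and 48.7%, and its relative Cacna1g had 47.6 and 29.2%. Of 92 potassium channel genes 12 were higher in MEFs and 26 (28.3%) in brain. Kcna2, a channel of the axon, had none and 31.6%, and Kcna3, a channel of lymphocytes, had 72.7% and none.

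Axon guidance genes were well covered in both samples, with medians of 22.1% in MEFs and 26.5% in brain, and split by family. Of 8 ephrins 6 were higher in MEFs and 1 in brain, whereas of 20 semaphorins 2 were higher in MEFs and 8 in brain. Efna5, an ephrin that repels growing axons, had 46.5 and 18.9%. Sema3g, a secreted semaphorin, had 40.5 and 11.1%. Epha8, an Eph receptor, had 14.4 and 52.7%, and Plxnb1, the receptor of semaphorin 4D, had 29.1 and 67.0%. Of 14 Eph receptors 2 were higher in MEFs and 4 in brain. Of 33 neuronal adhesion genes Odz3 was higher in MEFs and 4 were higher in brain, among them Nfasc (12.4 and 37.6%) and Cntn2 (7.67 and 32.7%), both of which act around the node of Ranvier. Clustered protocadherins were bare in both samples for 22 of 24 genes.

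Neural transcription factors were rarely higher in brain, with 1 of 45 (2.22%), and 6 (13.3%) were higher in MEFs, beside 21.6 and 9.07% of all genes. With equal numbers of peaks 3 were higher in MEFs and 1 in brain. Bcl11a and Bcl11b, zinc finger factors of cortical neurons that also act in blood cells and skin, had the largest differences. Bcl11a had 47.2% of its 96.1 kb in 48 MEF peaks and 4.30% in 4 brain peaks. Bcl11b had 65.6 and 26.6%. Emx1, a homeobox factor of the dorsal telencephalon, had no MEF peak and 12.8% in brain. Of the 45 factors 27 were bare in both samples, 3 of them on chromosome X.

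Respiratory chain genes had the largest share of members higher in brain of all lists when all peaks were counted. The 14 genes for enzymes and readers of DNA methylation and 5hmC were close, with 42.9%. With equal numbers of peaks the order turned, at 41 of 90 and 9 of 14 genes. Of 90 genes of the respiratory chain and its assembly, 40 (44.4%) were higher in brain and 6 in MEFs, against 21.6 and 9.07% of all genes. Their median span was 7.50 kb, and of all genes of 5 to 20 kb 29.8% were higher in brain. The median coverage was 0 in MEFs and 12.9% in brain. The median difference of -7.38 points became 0 with the better-scoring 50% of both lists, where 29 genes were higher in brain, and with a score of at least 80, where 14 were. By complex the counts were 18 of 42 genes of complex I, 2 of 4 of complex II, 4 of 8 of complex III, 7 of 19 of complex IV and 9 of 17 of the ATP synthase higher in brain. Cox6a2, a cytochrome oxidase subunit of muscle, had 96.8% of its 931 bp in brain and none in MEFs, but it overlaps another gene. Cox8c, a cytochrome oxidase subunit of the testis, had 75.3% in MEFs and none in brain. The list was made by symbol and so holds Cox4nb, which is no respiratory chain gene. It also counts Atp5sl, which is no ATP synthase subunit, among the 9 genes of the ATP synthase higher in brain.

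Of 361 zinc finger genes with Zfp symbols 98 (27.1%) were higher in brain and 15 (4.16%) in MEFs, and the median difference was -0.13 points. Zfp296 had no MEF peak and 64.7% in brain, Zfp646 none and 64.6%, and Zfp474 58.1% in MEFs and 15.9% in brain. Of 37 cell cycle genes 4 were higher in MEFs and 9 (24.3%) in brain, which is near the share of all genes. Cdc20, an activator of the anaphase-promoting complex, had 48.8 and 11.97%, and Cdc6, a licensing factor of replication, had 49.7 and 17.6%. Mcm7, a subunit of the replicative helicase, had 1.06 and 28.0%, and E2f3 had 38.8 and 64.6%.

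Of 14 genes for enzymes and readers of DNA methylation and 5hmC none was higher in MEFs and 6 were higher in brain. The readers Mbd1 (6.49 and 52.1%) and Mbd3 (15.8 and 57.4%) had the largest differences. Of the enzymes that make 5hmC, Tet3 had 32.3% in MEFs and 54.0% in brain, Tet2 had 4.86 and 13.8%, and Tet1 had 14.9 and 15.2%. Of the methyltransferases, Dnmt1 had 13.1 and 24.3%, Dnmt3a had 31.8 and 37.4% and Dnmt3b had 4.09 and 14.1%. These Tet and Dnmt genes were picked for their role after their values had been seen.

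Cytosolic ribosomal protein genes were more often higher in MEFs than in brain when all peaks were counted. Of 76 genes 20 (26.3%) were higher in MEFs and 12 (15.8%) in brain, with 10 of 45 genes of the large subunit and 10 of 31 of the small subunit higher in MEFs. The excess was mostly lost with other choices of peaks, as 11 and 8 genes were left with the better-scoring 50%, 13 and 12 with equal numbers and 7 and 4 with a score of at least 80. Rpl32 had 46.0% in MEFs and none in brain, and Rps7 had none and 64.3%. As many of these genes have processed copies elsewhere in the genome, and reads that match more than 1 place were dropped by the authors' mapping, the coverage of their exons is uncertain.

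Lists of genes that mark other tissues were counted too. With all peaks, skeletal muscle, lymphocyte and keratin genes were higher in MEFs more often than all genes were (9.07%). Of 17 skeletal muscle genes 7 (41.2%) were higher in MEFs, Myog (65.3 and 12.3%) and Tnnt3 (37.5 and 8.64%) first, and 3 (17.6%) in brain. Of 15 lymphocyte genes 5 (33.3%) were higher in MEFs, Cd79b (35.9% and none) and Il7r (14.9% and none) first, and Rag2 (8.92 and 20.8%) in brain. The lymphocyte counts depended on the choice of peaks, with 1 and 2 for the better-scoring 50%, 3 and 2 for equal numbers and 0 and 0 for a score of at least 80. Keratins were higher in MEFs for 14 of 46 genes (30.4%), Krt40 and Krt25 first, and in brain for 7 (15.2%), Krt35 and Krt10 first. With equal numbers of peaks keratins were at 10 and 10 and skeletal muscle genes at 5 and 5. Of 24 hepatocyte genes 2 (8.33%) were higher in MEFs and 5 (20.8%) in brain, near the 9.07 and 21.6% of all genes, with Apoa1 (none and 54.8%) and Hp (none and 23.0%) first. Olfactory receptor genes had no peak in either sample for 1064 of 1087 genes, and vomeronasal receptor genes for 320 of 322.

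At the TSS the direction was opposite to that over gene spans. A peak touched the TSS ± 1 kb of 6725 genes in MEFs (30.1%, exact 95% interval 29.5 to 30.7%) and of 4476 genes in brain (20.01%, 19.5 to 20.5%). A mean of 9.88% of the window was covered in MEFs and 6.62% in brain. A difference of at least 25 points, or 500 bp, was taken as large here, and 2740 TSSs (12.3% of all) were past it toward MEFs and 1308 (5.85%) toward brain. MEFs thus held 67.7% of the large TSS differences, or 76.3% with peaks of a score of at least 80, and 58.4% with equal numbers of peaks.

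Gene span and TSS were tied in part, and some of this is built in, as the first kb after the TSS counts in both. Of the 2028 genes with a higher span in MEFs, 34.3% also had a higher TSS in MEFs and 4.14% a higher TSS in brain. Of the 4822 genes with a higher span in brain, 13.1% had a higher TSS in brain and 11.0% a higher TSS in MEFs. Among all genes, 12.3% had a higher TSS in MEFs and 5.85% in brain. Genes with a higher span in MEFs had a mean of 25.6% of the TSS window covered in MEFs and 8.61% in brain. For genes with a higher span in brain these means were 10.8 and 12.3%.

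Few TSS windows were covered from end to end in one sample and bare in the other, 7 toward MEFs and 6 toward brain. Toward MEFs the named ones were Lgals7, a galectin of stratified epithelia, and Camp, the cathelicidin of neutrophils, as well as Ankrd1, a muscle ankyrin repeat protein and target of YAP. Fcgrt, the neonatal Fc receptor, Adh7, an alcohol dehydrogenase of epithelia, and Gcnt2, the I-branching enzyme, completed them. Lgals7 and Camp had a brain coverage of 0 over the span too, while Gcnt2 had nearly equal spans of 20.7 and 19.1%. Toward brain the named ones were Tas1r3, a taste receptor subunit, Tstd1, Angptl7, an angiopoietin-like protein, Esam, an adhesion molecule of endothelial cells, and Arsi, an arylsulfatase. Of these, Tas1r3, Tstd1 and Angptl7 overlap another gene.

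By list, TSS and span did not always go together. Over all genes 30.1% of TSS windows had a peak in MEFs and 20.01% in brain. Of 42 matrix genes 25 had a TSS peak in MEFs and 13 in brain, and of 33 actomyosin genes 19 and 7. Of the 46 mesenchymal factors, more often higher in MEFs by span, 6 had a TSS peak in MEFs and 7 in brain. Of the 36 synaptic vesicle genes 11 had a TSS peak in MEFs and 3 in brain, and of the 361 Zfp genes 123 and 66. The 90 respiratory chain genes, more often higher in brain by span, had a TSS peak for 25 genes in MEFs and 20 in brain. For Zfp and respiratory chain genes the shares with a TSS peak were thus near those of all genes.

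How often a peak was found varied with the density of CpGs in the window. The genes were divided into 5 equal classes by the CpGs in the window. In class 1, with the fewest CpGs, 6.53% of the TSS windows had a MEF peak and 3.53% a brain peak. Class 2 had the most, with 38.4% in MEFs and 29.0% in brain. From there the share went down to 32.2% in MEFs and 17.9% in brain in class 5, with the most CpGs. MEFs were above brain in each class, and the gap in this share was widest at the CpG-richest TSSs. By the mean percent of the window covered, the gap was widest in class 2, with 17.1% in MEFs and 12.8% in brain. In class 5 these means were 7.27 and 4.04%.

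**Figure D4:**
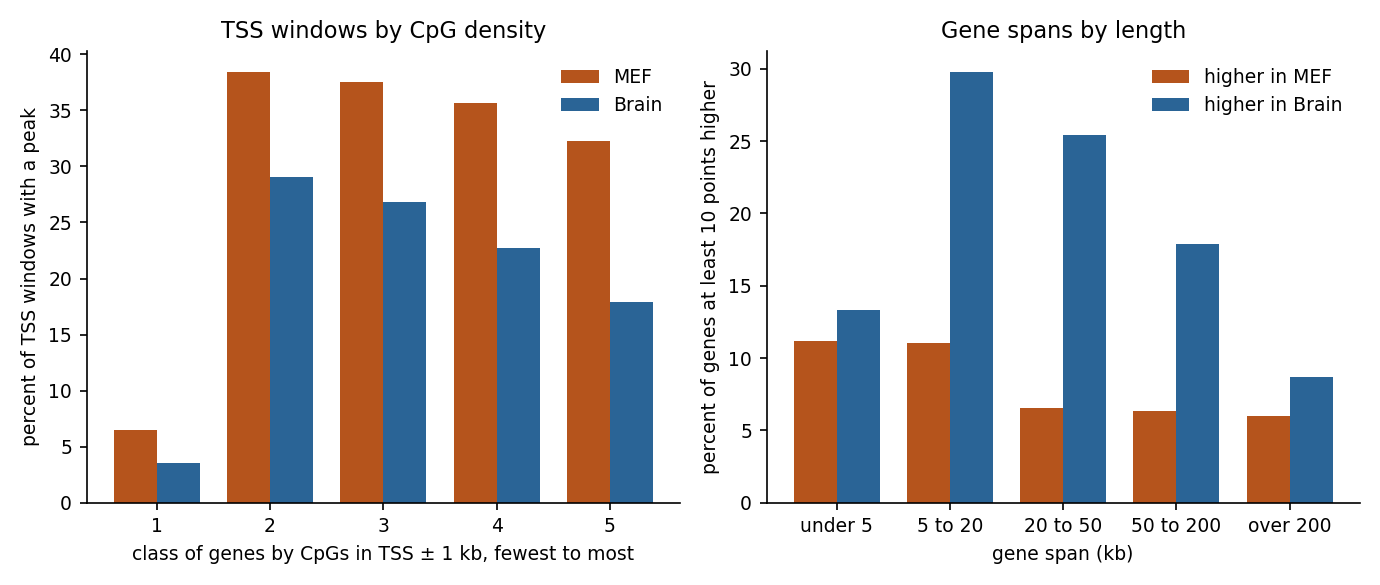
Left, percent of TSS ± 1 kb windows with a 5hmC peak in 5 equal classes of genes by the number of CpGs in the window. Right, percent of genes at least 10 points higher in MEFs or in brain by the length of the span in kb. MEF bars are the taller in each class on the left, and brain bars in each length class on the right (29.8 against 11.0% at 5 to 20 kb).

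Along the gene the samples had different shapes. For 16526 genes of at least 5 kb, the span was cut into 10 equal parts. Part 1, after the TSS, was covered at a mean of 12.4% in MEFs and 9.88% in brain, and part 10 at 12.3 and 19.9%. In brain the coverage went up along nearly the whole gene, and in MEFs it had a low of 10.3% in part 7. The excess of brain went on past the gene end, with 16.0% in the first kb downstream against 11.5% in MEFs. In the kb before the TSS the order was reversed, with 11.97% in MEFs and 7.62% in brain.

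Both samples had a dip at the TSS itself, where 6.87% of all genes were covered in MEFs and 4.46% in brain. On the upstream side the highest value was 12.8% at 800 bp from the TSS in MEFs and 10.3% at 1300 bp in brain. On the downstream side MEFs had a maximum of 15.1% at 1400 bp, after which the coverage went down, while brain had a broad one of 14.0% at 3700 bp. The gap in 5hmC around the TSS was thus wider in brain.

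**Figure D5:**
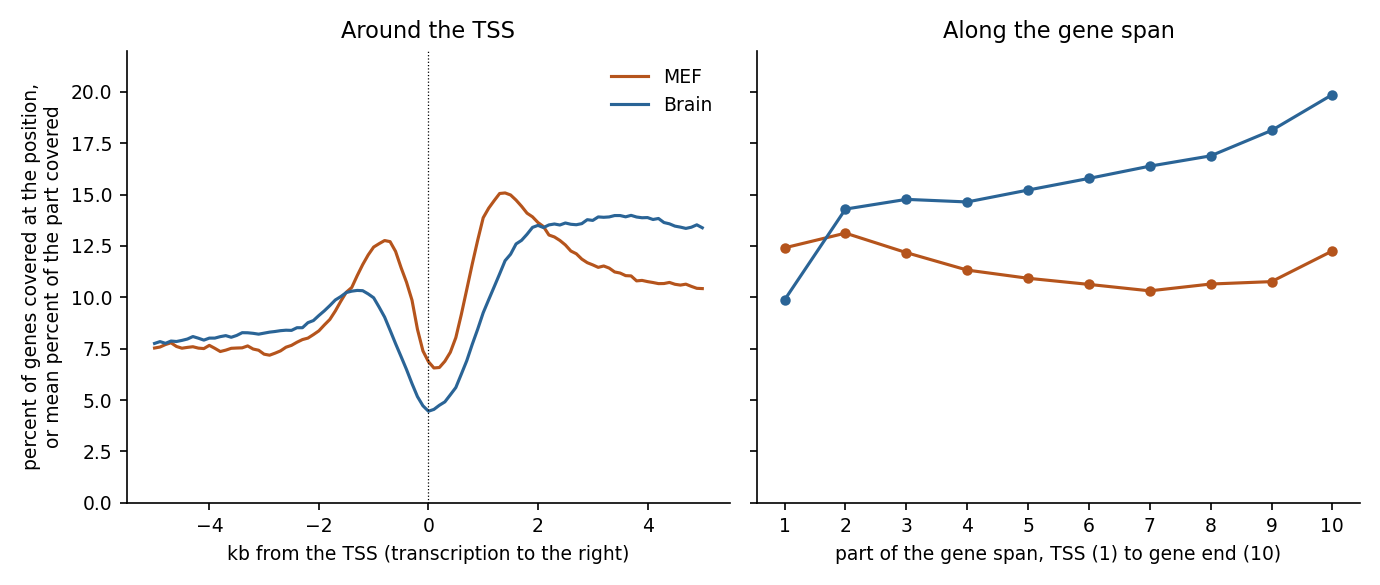
Left, percent of all genes whose base at the given distance from the TSS lies in a peak, from 5 kb upstream to 5 kb downstream. Right, mean percent of each of 10 equal parts of the span in peaks for genes of at least 5 kb, from the TSS to the gene end. The brain line climbs to 19.9% in part 10, and the MEF line stays between 10.3 and 13.1%.

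Exons were covered more than introns in both samples, and by more in brain. In MEFs 13.7% of exonic bp and 11.7% of intronic bp lay in peaks, a ratio of 1.18. In brain these were 21.8 and 13.2%, a ratio of 1.65. With peaks of a score of at least 80 the ratios were 1.11 and 1.95.

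The lean toward brain differed with the length of the gene. Of genes under 5 kb, 13.3% were higher in brain and 11.2% in MEFs. At 5 to 20 kb the shares were 29.8 and 11.0%, and over 200 kb they were 8.70 and 5.97%. On each autosome the mean coverage of gene spans was larger in brain, by 1.94 points on chromosome 13 up to 6.15 points on chromosome 8. On chromosome X it was 0.664% in MEFs and 0.129% in brain. Without the genes of chromosomes X and Y, 2019 genes were higher in MEFs and 4822 in brain.

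The larger coverage in brain was found inside genes, and outside them the order was turned. Of the bp in brain peaks 70.9% lay in protein-coding gene spans, and of those in MEF peaks 56.6%. Peaks covered 13.9% of gene bp in brain and 11.8% in MEFs, but 3.41% of the other bp in brain and 5.43% in MEFs.

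Many peaks were private to one sample. Of the MEF peaks 39.4% (exact 95% interval 39.2 to 39.6%) met a brain peak by at least 1 bp, and of the brain peaks 50.5% (50.3 to 50.8%) met a MEF peak. The samples shared 72.4 Mb, which is 34.8% of the bp in MEF peaks and 37.2% of those in brain peaks. Inside genes 48.2% of MEF peaks met a brain peak, and outside genes 28.5%. For brain peaks the shares were 49.5% in genes and 52.9% outside. These shares also depend on how much of the place the other library covers. Brain peaks covered 13.9% of gene bp and 3.41% of other bp, and MEF peaks 11.8 and 5.43%. The overlap that this coverage alone would give was not computed. Peaks that met the other sample were wider and had higher scores, with medians of 949 bp and 74.2 in MEFs against 750 bp and 51.6 for the others. In brain the medians were 1183 bp and 57.2 against 978 bp and 44.6.

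In base composition the shared and the private peaks of genes differed more than the samples did. Peaks in genes that met the other sample had a median of 1.61 CpGs per 100 bp in MEFs and 1.54 in brain. Private peaks had 1.29 and 1.31, and all gene spans together had 0.992. The GC content was 47.4 and 47.2% for peaks that met, 44.9 and 46.0% for private ones and 43.0% for all gene spans together.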

How the data were processed

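GLIB-Seq libraries of MEFs and brain, 1 each, were analysed as the authors deposited them, as lists of peaks with a score. The 4 other 5hmC libraries and the 2 RNA-Seq libraries were not used here. Per the labels and the study's methods, base calls were made with CASAVA 1.8, reads were mapped to mm9 with Bowtie 0.12.7, unique hits were kept, redundant reads were collapsed and peaks were called with MACS 1.4.1 in each library. The control and the threshold of MACS are not given in the sources used here. The deposited score is the authors' value from MACS. The lists hold no read counts, so the depth, and the precision it would give, is not known. 1 mitochondrial peak of each list was left out.

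Peaks were set against the 22367 protein-coding genes of GENCODE M1 (NCBIM37, the same assembly as mm9) in Python 3.11 (scipy 1.17.1, pandas 2.3.3, numpy 2.4.6; figures in matplotlib 3.10.9; genome index by samtools 1.23.1). The covered share of each gene span and of the TSS ± 1 kb was computed, and the steps were tested on simulated peaks of known position. Differences of at least 10 points of the span or 25 points of the TSS window were counted. No test was made, as there is 1 library a side, and exact (Clopper-Pearson) 95% intervals cover counting error alone. Named genes are, among spans of at least 5 kb, the 12 largest differences each way, skipping genes that overlap one already taken and genes without a proper name, the 6 largest each way in bp and at the TSS, the 2 largest each way of each list past 10 points, and the cell type markers; all others were picked after their values were seen. Some genes that this rule names are not reported here. The comparison, its members and the gene lists were chosen with earlier results of these data known. A list symbol with several entries was counted once, by its longest span, and 1 symbol, Sox1, was not matched. The alternatives were 3 other choices of peaks (the 50% with the highest scores, equal numbers, a score of at least 80), other gene sets, windows, sizes and overlaps, and a division by the covered share of the genome; leaving out chromosomes X and Y was chosen after seeing the data.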

Additional observations from a re-analysis of the deposited data

How the results depend on the processing

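Brain had more gene spans past 10 points, and MEFs more TSS windows past 25 points, under each of the 9 and 7 alternatives run for them. For spans higher in MEFs, 860 genes were left with a difference of 20 points in place of 2028. For those higher in brain, there were 2389 with 20 points, and 2211 when peaks had to score 80 or more, in place of 4822. TSS windows higher in MEFs were 1771 with the better-scoring 50% of both lists and 1407 with a score of at least 80, and windows higher in brain were 437 with the latter. The share of TSS windows with a peak was, in MEFs and brain, 17.3 and 11.6% with the better-scoring 50%, 11.99 and 5.45% with a score of at least 80, 18.4 and 11.5% within 500 bp of the TSS, 42.1 and 32.3% within 2 kb, and 31.3 and 20.9% without chromosomes X and Y. It was 23.7% in MEFs with as many MEF peaks as brain peaks. The share of peaks that met the other sample was, for MEFs and brain, 22.2 and 30.5% when at least 50% of both peaks had to be shared, 43.7 and 42.4% with equal numbers and 21.9 and 44.9% with a score of at least 80. The order of the 2 samples in this share thus turned with equal numbers of peaks. Of these values the others, 29 of 52, moved by less than 1.5 times for a count or stayed within the interval of a share.

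Among 185 median differences of gene lists and of all genes recomputed, 3 changed sign. With equal numbers of peaks that of laminins and integrins was -1.70 points, toward brain, in place of 1.28, and that of postsynaptic genes -1.29 in place of 0.32. With a score of at least 80 that of sodium and calcium channels was 0.69 in place of -0.84. In all, 36 of the medians moved by at least 1 point and by more than 1.5 times or away from 0, and 11 of them became 0, among them those of respiratory chain genes and lymphocyte genes. Differences of the 24 genes named by span kept their direction in all 96 recomputed values, and the 6 that moved by more than 1.5 times all became smaller. These genes were picked for the largest differences in the same peaks, so a kept direction says little about the comparison or about other genes. No paired analysis was possible because each sample has 1 library, and for the same reason no library could be left out. The cause of these shifts was not tested. Without read counts, a lower coverage cannot be told apart from a shallower library.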

Other observations

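Runs of neighbouring genes with a larger span coverage in brain outnumbered runs with a larger coverage in MEFs. Counting neighbouring protein-coding genes that were all past 10 points in the same direction, brain had 161 runs of at least 4 genes, with 750 genes in all, and MEFs had 14 runs with 58 genes. The longest run in brain held 12 genes on chromosome 4, from Icmt to Ccdc27, with median coverages of 6.95% in MEFs and 32.5% in brain. It includes Chd5, a chromatin remodeller of neurons, and Kcnab2, a potassium channel subunit. A run of 9 genes on chromosome 9, from Cacna2d2 to Hyal1, had medians of 8.52 and 40.1% and includes the tumour suppressor gene Rassf1. A run of 8 genes on chromosome 19, from Men1 to Rps6ka4, had 10.5 and 56.8% and includes Nrxn2. The longest run in MEFs held 6 genes on chromosome 7, from Tnni2 to Igf2, with 24.4 and 5.53%. Tnni2 and Tnnt3 in this run encode troponins of fast muscle, and Igf2 encodes an imprinted fetal growth factor. As genes past 10 points were more numerous in brain, and neighbouring genes can share a peak, these counts do not by themselves set the samples apart.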
